A study of Mus musculus with 2 samples.

Results

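Cycling epithelial cells of the mouse endometrium on day 3 of pregnancy were defined by UMIs, the counts of distinct captured molecules, of 5 genes of mitosis: Top2a, Tpx2, Kif11, Prc1 and Birc5. A barcode was called epithelial when at most 10% of its UMIs were mitochondrial and its sum over Epcam, Cdh1, Cldn3, Cldn7, Elf3 and Esrp1 exceeded its sum over Col1a1, Col1a2, Col3a1, Pdgfra and Hoxd10. It was called cycling when the sum of the 5 mitotic genes, here the cycling sum, was at least 2 and above each of 4 other sums. Those were A (Slc5a11, Lrp2, Arvcf, Slc51a and Jam2), B (Ptpn22, Bcl2l15, Arhgef38, Muc4 and Padi4), C (Clca3b, Clca3a2, Ecm1, Ppbp and Ltf) and D (Syn2, Slc2a3, Gulo, Rdh1 and Dab1). The rule kept 462 of 2998 epithelial barcodes and of 7908 barcodes in all. The study held 1 library of Erbb3 f/f females, the floxed control, and 1 library of females of genotype Erbb3 d/d, with the loss of Erbb3 placed in the stroma by the labels. Both came from uterus of day 3 of pregnancy, and the labels used here name neither the Cre driver nor the strain, the age or the number of mice per library. Tissue was fixed, dissociated and measured with the Chromium Flex assay, in which probe pairs bind transcripts of fixed cells. Because there was 1 library per genotype, no test was possible, and every interval given is a 95% interval that covers counting error only and not the spread between animals or preparations.

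Before an embryo implants, the luminal epithelium of the mouse uterus divides in response to estrogen and then leaves the cell cycle as progesterone acts through the stroma. In a dividing cell, DNA is copied in S phase by helicase, polymerase and nucleotide-supplying enzymes. After G2, cyclin-dependent kinase 1 drives entry into mitosis, the anaphase-promoting complex with its activator Cdc20 starts chromosome separation, and a ring of contractile proteins divides the cell. The 5 genes of the rule act late in this order. Top2a encodes the topoisomerase that untangles chromosomes, Tpx2 and Kif11 build the spindle, Prc1 bundles the microtubules of the spindle midzone, and Birc5 encodes survivin, a subunit of the chromosomal passenger complex.

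The f/f library gave 175 members among 2191 epithelial barcodes and the d/d library gave 287 among 807. Members held a median of 1247 UMIs for f/f and 1002 for d/d, compared with 866 and 751.5 in the other epithelial barcodes. The 175 f/f members held 239066 UMIs in all and the 287 d/d members held 318719. No barcode occurred in both libraries under its full name, while 158 shared their first 16 letters, among them 3 f/f and 17 d/d members. The median mitochondrial share of members was 0.385% in f/f and 0.456% in d/d.

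The epithelial part of the label was checked against further markers. Markers of other stromal cells summed to 268 CPM (UMIs per 1e+06 UMIs of the group) in f/f members and 195 in d/d members, against 2670 and 2053 in stromal barcodes. The endothelial sum was 71.1 and 65.9 CPM, the myeloid sum 66.9 and 84.7, the mesothelial sum 62.7 and 97.3, and that of smooth muscle and pericytes 83.7 and 56.5 (f/f and d/d). The 8 lymphoid markers had 2 UMIs in f/f members and 0 in d/d members. No UMI of the 5 stromal genes of the rule was found in 76.0% of f/f members and 85.0% of d/d members. Of the gland markers, Foxa2 had 0 UMIs in f/f members and 1 in d/d members, and Cxcl15 had 2 in each, so members could not be assigned to glands from these genes.

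The cycling part of the label was checked against genes the rule did not use. Of the members, 98.9% in f/f and 100% in d/d held a UMI of a list of G2 and mitosis genes, which supplied a median of 30 UMIs per f/f member and 24 per d/d member. A single such UMI was also found in 68.4% and 80.6% of the other epithelial barcodes and in 64.6% and 73.1% of stromal barcodes, and is thus no mark of a cycling cell. The share of UMIs from that list was 26428 CPM in f/f members and 22688 in d/d members, against 4255 and 8193 in the other epithelial barcodes and 2316 and 4793 in stromal barcodes. Mki67, the widely used antigen of dividing cells, stood at 389 CPM in f/f members and 311 in d/d members, against 90.2 and 107 in the other epithelial cells.

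The promoters of 3 of the 5 genes that chose the cells, Top2a, Kif11 and Prc1, and of 3 central regulators of mitosis are shown for the elements for which late cell cycle genes are known. Many promoters of late cell cycle genes carry a cell cycle homology element, with the letters TTTGAA or the variant form TTTAAA, bound by the DREAM and MuvB complexes, and CCAAT boxes, bound by the factor NF-Y. The 200 bases before the start of each gene are given 5′ to 3′ on the gene's strand, from RefSeq on build GRCm38.p6, with these elements in capitals on either strand (so TTCAAA marks the first of them in reverse orientation, while the reverse of the CCAAT box reads ATTGG). The windows were chr11:99024190-99024389 on the minus strand for Top2a, chr19:37376182-37376381 on the plus strand for Kif11, chr7:80294251-80294450 on the plus strand for Prc1, chr10:69352913-69353112 on the minus strand for Cdk1, chr7:122159235-122159434 on the plus strand for Plk1 and chr4:118437344-118437543 on the minus strand for Cdc20.
Top2a: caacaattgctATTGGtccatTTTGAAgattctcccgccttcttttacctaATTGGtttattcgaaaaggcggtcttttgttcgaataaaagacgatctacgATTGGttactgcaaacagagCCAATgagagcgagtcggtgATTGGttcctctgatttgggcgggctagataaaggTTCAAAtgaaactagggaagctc
Kif11: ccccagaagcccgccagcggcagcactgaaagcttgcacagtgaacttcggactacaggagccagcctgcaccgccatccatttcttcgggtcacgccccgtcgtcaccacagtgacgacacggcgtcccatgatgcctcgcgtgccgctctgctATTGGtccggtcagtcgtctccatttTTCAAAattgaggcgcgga
Prc1: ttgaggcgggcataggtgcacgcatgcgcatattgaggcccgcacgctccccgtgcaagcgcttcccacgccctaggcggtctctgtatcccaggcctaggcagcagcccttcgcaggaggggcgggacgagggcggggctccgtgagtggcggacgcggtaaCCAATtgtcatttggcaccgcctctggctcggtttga
Cdk1: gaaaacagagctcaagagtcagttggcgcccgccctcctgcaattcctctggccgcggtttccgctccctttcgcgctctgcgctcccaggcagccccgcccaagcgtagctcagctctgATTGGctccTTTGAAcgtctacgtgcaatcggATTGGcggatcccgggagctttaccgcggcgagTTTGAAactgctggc
Plk1: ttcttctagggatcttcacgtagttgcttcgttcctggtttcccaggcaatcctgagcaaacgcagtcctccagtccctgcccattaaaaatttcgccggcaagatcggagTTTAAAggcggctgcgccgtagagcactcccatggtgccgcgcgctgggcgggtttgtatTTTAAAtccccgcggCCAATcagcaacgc
Cdc20: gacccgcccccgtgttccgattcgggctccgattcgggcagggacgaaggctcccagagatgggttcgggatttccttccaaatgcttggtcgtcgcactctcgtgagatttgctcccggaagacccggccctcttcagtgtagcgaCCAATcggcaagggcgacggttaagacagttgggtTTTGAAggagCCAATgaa
The Top2a window held 5 CCAAT and 2 TTTGAA, the Kif11 window 1 of each, and the Prc1 window 1 CCAAT and no homology element. Cdk1 held 2 CCAAT and 2 TTTGAA, Plk1 held 1 CCAAT and 2 TTTAAA, and Cdc20 held 2 CCAAT and 1 TTTGAA. The Birc5 window held none of these letters, and Tpx2 had no entry in the promoter table. Within 250 bases before the start, CCAAT occurred in 34.5% of the 27025 genes of the table and in 71.0% of the 69 G2 and mitosis genes with an entry. TTTGAA occurred in 16.3% of all genes and in 33.3% of the G2 and mitosis genes. The variant TTTAAA occurred in 12.1% of all genes and in 13.0% of the G2 and mitosis genes. CCAAT and TTTGAA occurred together in 5.73% of all genes and in 29.0% of the G2 and mitosis genes. Of the 116 genes with an entry that stood at least 2-fold higher in cycling than in other epithelial cells of both libraries, 61.2% held CCAAT, 27.6% held TTTGAA and 11.2% held TTTAAA. Of the 5497 genes with an entry that were counted in that comparison, 36.3% held CCAAT, 9.88% held TTTGAA and 7.91% held TTTAAA. Among 40 S phase genes the shares were 60.0% for CCAAT, 17.5% for TTTGAA and 7.5% for TTTAAA. A match is a description of letters and not a bound site.

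Cycling cells made up 7.99% of epithelial barcodes of f/f (6.89 to 9.20%) and 35.6% of those of d/d (32.3 to 39.0%). The share was thus 27.6 percentage points higher in d/d (24.1 to 31.2). These values describe the rule in 2 libraries and are not tested. The condition on lists A to D acted unequally on the libraries. A sum of at least 2 for list A occurred in 68.2% of f/f but 14.3% of d/d epithelial barcodes, and of the barcodes with a cycling sum of at least 2, lists A to D held back 167 of 342 in f/f (48.8%) and 52 of 339 in d/d (15.3%). List A alone held back 147 f/f and 11 d/d barcodes, and list B held back 20 and 36. Without that condition, the shares were 15.6% for f/f (14.1 to 17.2) and 42.0% for d/d (38.6 to 45.5), 26.4 points apart.

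Members differed in how strongly they carried the 5 genes. The cycling sum of a member had a median of 5 in f/f (quartiles 4 and 7, highest 22) and of 4 in d/d (quartiles 3 and 5, highest 14). Members at the threshold of 2 numbered 22 in f/f (12.6%) and 69 in d/d (24.0%). Just outside it, 93 epithelial barcodes in each library had a sum of 1. Their level of the G2 and mitosis list was 6515 CPM in f/f and 13912 in d/d. At a sum of 2, members and held-back barcodes together had 15206 CPM for f/f and 20718 for d/d, and at a sum of 0 the level was 1597 and 3997. In d/d the barcodes just below the threshold thus carried more of the list than the same barcodes in f/f.

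**Figure D1:**
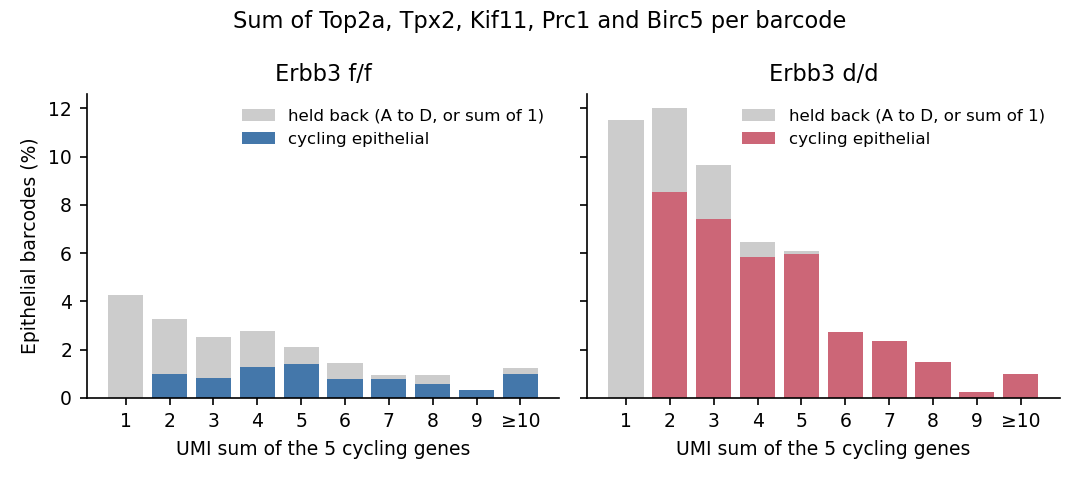
Bars give the percentage of epithelial barcodes (y axis) at each UMI sum of Top2a, Tpx2, Kif11, Prc1 and Birc5 (x axis) in the f/f library on the left and the d/d library on the right. Coloured parts are cycling epithelial barcodes, grey parts those held back by lists A to D or with a sum of 1, and a sum of 0 (1756 f/f and 375 d/d barcodes) is not drawn.

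Top2a was the gene found most often, with a UMI in 88.6% of f/f members and 78.7% of d/d members. Tpx2 was found in 61.1% and 57.5%, Kif11 in 36.6% and 38.7%, Prc1 in 61.7% and 46.7%, and Birc5 in 54.3% and 36.9% (f/f and d/d). These 5 genes chose the members, so their levels describe the rule. Per UMI of the members, the d/d to f/f ratio on the log2 scale was -0.20 for Top2a (405 and 471 UMIs), 0.15 for Tpx2 (169 and 250), 0.38 for Kif11 (83 and 144), -0.47 for Prc1 (207 and 199) and -0.41 for Birc5 (147 and 148).

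The share with a cycling sum of at least 2 was higher in d/d among epithelial barcodes led by each of the 4 lists, with intervals of the difference that included 0 for list C. It was 16.4% in f/f and 26.7% in d/d where list A led, 15.3% and 51.5% where B led, 15.6% and 28.6% where C led, and 8.93% and 34.8% where D led. Where no list exceeded 1 UMI, it was 16.8% and 42.4%. The make-up of the epithelium differed strongly, with list A leading in 59.7% of f/f but 11.2% of d/d epithelial barcodes. Weighting the d/d shares by the f/f make-up, a calculation added after the values were seen, gave 32.7%, against 15.6% measured in f/f and 42.0% in d/d. When every barcode was first thinned at random to 500 UMIs, 5.53% of f/f epithelial barcodes and 22.4% of those of d/d passed the full rule, a difference of 16.9 points (13.6 to 20.4).

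Other cell types gave the background of the threshold. A cycling sum of at least 2 occurred in 3.01% of f/f but 12.9% of d/d stromal barcodes, whose median depths were 784 and 771 UMIs. It was 0.590% (8 of 1357) and 3.35% (11 of 328) in stromal barcodes with at least 3 stromal UMIs and no epithelial UMI. Endothelial barcodes passed in 9 of 133 cases in f/f and 6 of 37 in d/d, mesothelial barcodes in 3 of 127 and 3 of 36, and myeloid barcodes in 1 of 49 and 2 of 19. The share in d/d was thus above that in f/f in each class, with an interval of the difference that included 0 for endothelial, mesothelial and myeloid barcodes. The part of free RNA and of doublets in these shares was not tested. Of members, 0.571% for f/f and 3.48% for d/d were among the barcodes with the highest doublet scores, against 3.52% and 4.42% of the other epithelial barcodes. That set held 362 of 5783 f/f and 124 of 2125 d/d barcodes. The scoring called 0 f/f barcodes and 1 d/d barcode and had not worked, so these shares do not measure doublets.

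**Figure D2:**
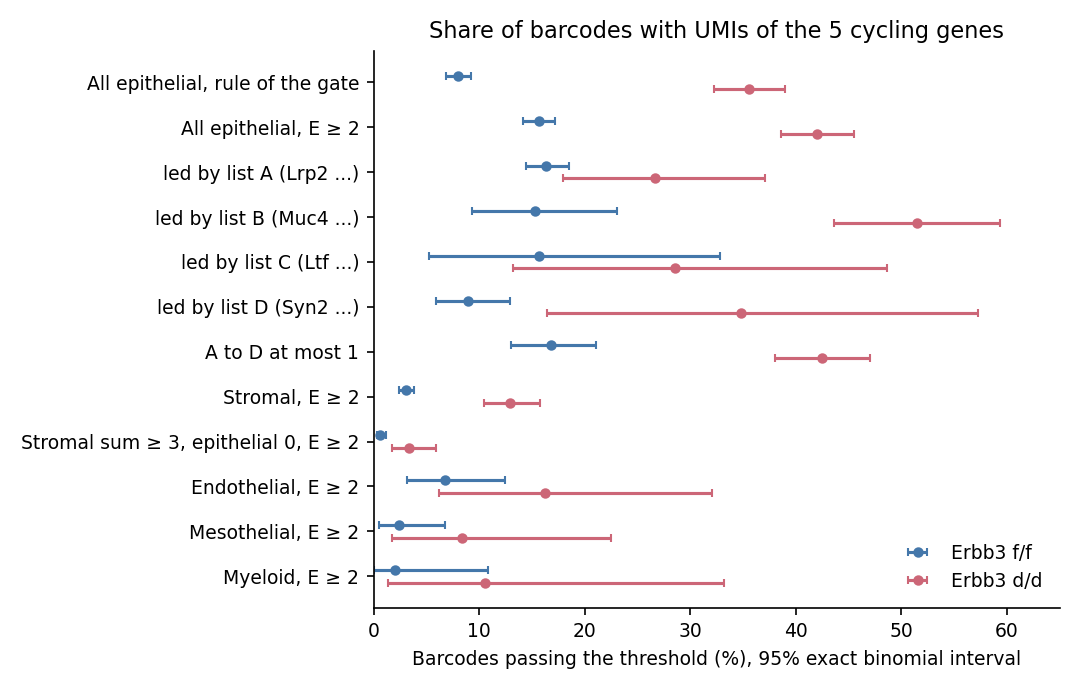
Points give the percentage of barcodes (x axis) that pass the full rule (top line) or hold at least 2 UMIs of the 5 cycling genes (E, all other lines) in f/f (blue) and d/d (red), and bars are 95% exact binomial intervals for counting error. The f/f and d/d points stand at 7.99 and 35.6% for the full rule, and the gap is smallest in the stromal barcodes with no epithelial UMI.

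Within each library, members were compared with the other epithelial barcodes to describe what else cycling cells carried. Genes with at least 100 UMIs over these cells were counted, genes of the rule left out, and past the fold means a log2 CPM ratio of at least 1 or at most -1. Of 6814 genes counted, 142 were higher in members of both libraries (2.08%) and 50 were lower in both (0.734%). Taken singly, the f/f library had 4.87% of genes higher and 4.59% lower, and the d/d library 3.07% higher and 4.39% lower. Of the 142, 62 were in the lists of S phase or of G2 and mitosis genes, and 71 were in none of the 15 gene lists. Of the 67 counted genes of the G2 and mitosis list, 61 were higher in both libraries, with a median log2 ratio of 2.78 in f/f and 1.52 in d/d. The median over all genes was -0.06 in f/f and -0.04 in d/d. Since such genes travel with the 5 genes of the rule, their ratios describe the cells chosen.

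Pimreg, a mitotic regulator, led the 12 genes with the highest ratios in both libraries, with 69 UMIs in f/f members and 81 in d/d members, and log2 ratios of 3.82 and 2.48 over other epithelial cells. Next came Prr11 (2.84 in f/f and 2.46 in d/d), Nusap1, which bundles spindle microtubules (3.06 and 2.29), Ccdc18 (2.76 and 2.22) and the kinetochore motor Cenpe (2.77 and 2.21). The kinases Melk (2.69 and 2.11), Plk1 (2.88 and 2.10) and Aurka (3.40 and 2.04) were among them, with Bora (2.63 and 2.01), which helps Aurka to activate Plk1. The others were Sapcd2 (3.76 and 2.11), Mxd3, a partner of Max (2.74 and 2.10), and Hmmr, a spindle-associated hyaluronan receptor (3.31 and 2.03). In each of these 12 the f/f ratio exceeded the d/d ratio.

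The genes lowest in members rested on few molecules. Slc25a33, a mitochondrial nucleotide carrier, had 8 UMIs in f/f members and 3 in d/d members, at log2 ratios of -2.36 and -2.41. Its level was 33.5 CPM against 172 CPM in the other f/f epithelial cells, and 9.41 against 50.0 in d/d. Of the other 7 genes with the lowest ratios (Tcp11l2, Rap1gds1, Cwh43, Cxcl15, Dnah14, Acox3 and Adipor2), none had more than 5 UMIs in the members of either library. Lifting the condition on lists A to D put Slc25a33 at -0.99 in f/f, short of the fold. Without it f/f had 342 such barcodes instead of 175, and the other 7 genes had 7 to 22 UMIs there instead of 1 to 5. The part of that condition in these low values was not tested.

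Genes of S phase separated members from other epithelial cells less than those of mitosis. Of 33 counted genes of the S phase list, 15 were higher and 2 lower in f/f members, with a median log2 ratio of 0.90. In d/d members 1 was higher and 1 lower, with a median of 0.02. Of all 6814 genes counted, 4.87% were higher and 4.59% lower in f/f members, and 3.07% and 4.39% in d/d members. Rrm2, the regulated subunit of ribonucleotide reductase, stood at 243 CPM in f/f members against 83.8 in other f/f cells, and at 326 against 268 in d/d. Pola1, the catalytic subunit of the primase-associated DNA polymerase, stood at 176 against 75.5 CPM in f/f and at 169 against 205 in d/d. The helicase subunit Mcm3 was at 83.7 against 57.0 CPM in f/f and 81.6 against 141 in d/d. Ccne2, a cyclin of the start of S phase, was at 58.6 against 19.5 CPM in f/f and 59.6 against 97.8 in d/d. For Pola1, Mcm3 and Ccne2 the other d/d cells thus held more of the transcript per UMI than the d/d members. Where only barcodes with a cycling sum of 0 served as the reference, the medians were 1.15 in f/f and 0.11 in d/d for the S phase list and 4.99 and 2.74 for the mitosis list.

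Regulators of this program and of DNA repair were also counted. Foxm1, a transcription factor of mitotic genes, had 197 CPM in f/f members and 154 in d/d members, against 24.9 and 40.9 in the other cells. Mybl2, the MuvB partner B-Myb, had 83.7 and 84.7 CPM in members against 16.1 and 63.7 in the others. E2f8, a repressor of the E2F family, had 130 and 110 CPM in members against 23.4 and 63.7. Of 18 counted repair and checkpoint genes, 13 were higher in f/f members (median 1.99) and 7 in d/d members (median 0.83), and none was lower past the fold. Of all 6814 genes counted, 4.87% were higher and 4.59% lower in f/f members, and 3.07% and 4.39% in d/d members.

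**Figure D3:**
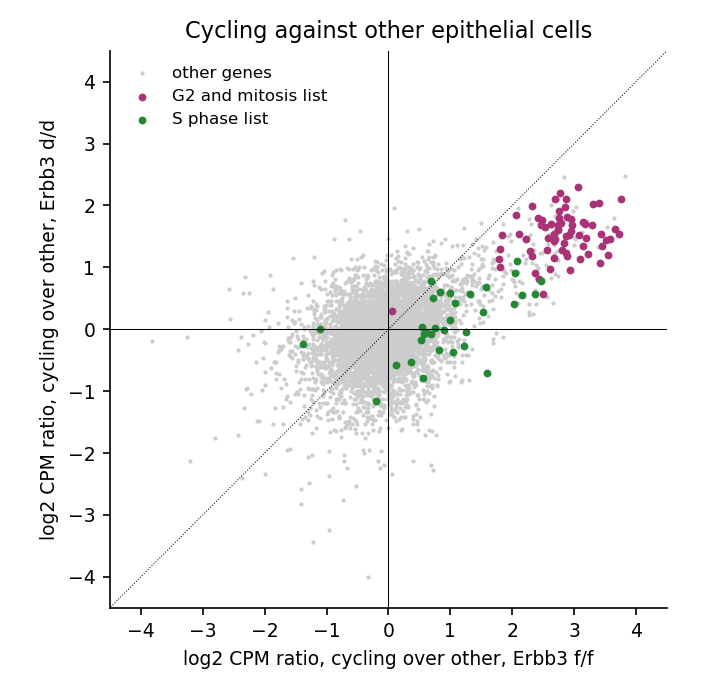
Each point is a gene with at least 100 UMIs, placed by its log2 CPM ratio of cycling over other epithelial cells in f/f (x axis) and in d/d (y axis), with genes of the rule left out and the dotted line marking equal ratios. The G2 and mitosis list (purple) lies mostly below that line, with medians of 2.78 for f/f and 1.52 for d/d, and the S phase list (green) has medians of 0.90 and 0.02.

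The phase make-up of members was described by list UMIs. Members held 17.9 S phase UMIs per 100 UMIs of the G2 and mitosis list for f/f (16.8 to 19.1) and 24.6 for d/d (23.4 to 26.0). With no condition on lists A to D the values were 22.1 and 24.3, and the barcodes held back by A to D had 26.9 in f/f and 22.4 in d/d. The gap between the libraries was thus narrower when the condition was lifted. After thinning to 500 UMIs, a member held a median of 2 S phase UMIs in both libraries, and a median of 13 UMIs of the mitosis list in f/f and 11 in d/d. UMIs of both lists were found in 80.0% of f/f members (140 of 175) and 86.8% of d/d members (249 of 287), a difference of 6.76 points (-0.45 to 14.4) that counting error alone can span. The size of this difference depended on the setting. Without thinning the shares were 93.7% and 95.8%. The difference was 7.54 points (0.84 to 15.01) over the 118 f/f and 144 d/d members that could be thinned to 1000 UMIs, and 12.1 points (2.61 to 21.6) at 500 UMIs when at least 2 UMIs of each list were asked for, and both of these intervals leave out 0. Both lists were found in 29.8% and 56.1% of the other epithelial barcodes and in 32.8% and 44.7% of stromal barcodes, so a phase call of this kind does not mark a cycling cell.

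Between the genotypes, no gene of the S phase, mitosis or G1 lists with at least 100 UMIs in members was past the fold there. That minimum was reached by 51 of 80 mitosis genes, but by only 10 of 55 S phase genes and 1 of 20 G1 genes. At 20 UMIs, 3 of 13 G1 genes were higher in d/d and none lower. Of 1410 genes with at least 100 UMIs in members, 32 were higher in d/d (2.27%) and 27 were lower (1.91%), and the median log2 ratio of all was 0.04. None of the 51 counted genes of the G2 and mitosis list was past the fold, their median was -0.19, and 12 of them were above 0. With no condition on lists A to D, 63 genes counted, the median was 0.05 and 35 were above 0, so the sign of the median depended on that condition. At a minimum of 20 UMIs, added after the values were seen, 74 genes of the list counted, none higher and 1 lower, with a median of -0.19, where 5.7% of 6541 genes were higher and 4.75% lower. The 1 was Knl1, a kinetochore scaffold, with 38 and 19 UMIs (-1.41, -2.29 to -0.58). In the other epithelial cells, 24 of the 46 genes of the list with at least 100 UMIs in both groups were higher in d/d, with a median of 1.01. Over all 1400 genes that reached this minimum in both groups, the median was 0.09. Of the 6084 genes with at least 100 UMIs in the other cells, a wider set, 3.57% were higher and 4.19% lower. Members of both libraries were chosen by 5 genes that travel with this list, so its ratios in members describe the cells chosen. The part of the rule in the contrast with the other cells was not tested.

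Among regulators of entry into mitosis, Cdk1 had 184 UMIs in f/f members and 168 in d/d members, a log2 ratio of -0.55 (-0.86 to -0.24). Ccnb2, a cyclin of Cdk1, had 86 and 123 UMIs (0.10, -0.31 to 0.52), and Ccna2 had 31 and 45 (0.12, -0.57 to 0.83). Ccnb1 had 1 UMI in each, which gives it no readable value. Plk1 had 65 and 56 UMIs (-0.63, -1.17 to -0.09), and Aurka had 92 and 116 (-0.08, -0.49 to 0.33). Thus, under the rule, Ccnb2, Ccna2 and Aurka did not differ beyond counting error, while Cdk1 and Plk1 were lower in d/d members within 1 log2 unit. Lifting the condition on lists A to D put Cdk1 at -0.30 and Plk1 at -0.52. Aurka turned to 0.354 (0.005 to 0.702) there, an interval that left out 0. The intervals of Ccnb2, at 0.16, and Ccna2, at 0.18, still included 0.

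Genes of chromosome separation and of cell division differed in direction within 1 log2 unit. The activator Cdc20 had 85 UMIs in each library, a log2 ratio of -0.41 (-0.87 to 0.04). Ube2c, the ubiquitin-conjugating enzyme of the anaphase-promoting complex, had 193 and 181 UMIs (-0.51, -0.81 to -0.21). In cytokinesis, Anln, which binds the contractile ring, had 158 and 209 UMIs (-0.01, -0.32 to 0.30), and the exchange factor Ect2 had 136 and 179 (-0.02, -0.35 to 0.31). Racgap1, the partner of Ect2, had 81 and 71 UMIs (-0.60, -1.09 to -0.13), and the citron kinase Cit had 153 and 130 (-0.65, -1.0 to -0.30). The lamin gene Lmnb1 was higher in d/d members, with 77 and 141 UMIs and a ratio of 0.46 (0.05 to 0.88), whereas Lmnb2 was lower, with 72 and 55 UMIs and -0.80 (-1.34 to -0.28). With no condition on lists A to D, Cdc20 turned to 0.18 (-0.20 to 0.55), and the intervals of Ube2c, at -0.22 (-0.47 to 0.03), and Cit, at -0.23 (-0.51 to 0.04), included 0. Racgap1 stood at -0.40, Lmnb1 at 0.60 and Lmnb2 at -0.60 there, with intervals that left out 0.

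Of the S phase list 10 genes were counted in members, none past the fold, with a median of 0.43 and 9 above 0. At 20 UMIs 41 genes counted, 2 higher (Mcm6 at 1.85 and Dscc1 at 1.76) and 2 lower (Rfc5 at -1.04 and Uhrf1 at -1.18), with a median of 0.29. Rrm2 had 58 UMIs in f/f members and 104 in d/d members, a log2 ratio of 0.43 (-0.05 to 0.92), and -0.04 with no condition on lists A to D. Intervals above 0 were found for Hells, a chromatin remodeller, with 35 and 72 UMIs (0.63, 0.02 to 1.25), and the nucleotide hydrolase Dut, with 34 and 73 (0.69, 0.08 to 1.32). Without that condition 16 genes of the list counted, with a median of 0.13 and 9 above 0. In the other epithelial cells, all 10 counted genes of the list were past the fold in d/d, with a median of 1.15.

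**Figure D4:**
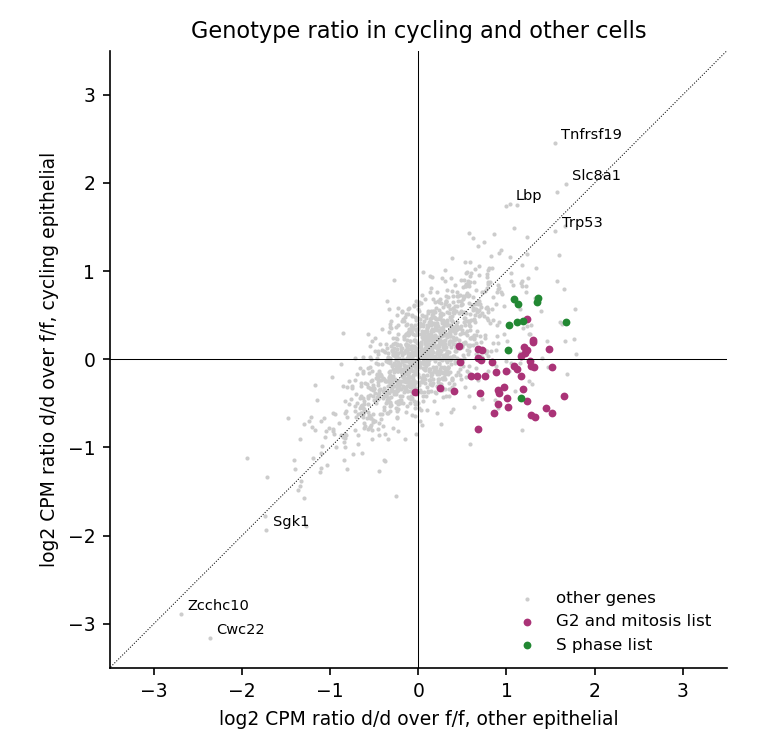
Each point is a gene with at least 100 UMIs in members and in other epithelial cells, placed by its log2 CPM ratio of d/d over f/f in other epithelial (x axis) and in cycling epithelial cells (y axis), with a dotted line of equal ratios. Genes of the G2 and mitosis list (purple) lie at a median of 1.01 on the x axis and -0.19 on the y axis, while Tnfrsf19, Cwc22 and Zcchc10 lie far from 0 on both.

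Among genes with at least 100 UMIs in members, 58 of the 59 past the fold had the same sign in the other epithelial cells, 32 of them also past the fold there. Tnfrsf19, a receptor of the tumour necrosis factor family, had 38 UMIs in f/f members and 278 in d/d members, 159 and 872 CPM, a log2 ratio of 2.46 (1.96 to 2.99). In the other epithelial cells its ratio was 1.55 (1.31 to 1.79), and the difference between members and others was 0.91 (0.36 to 1.45). Over 1400 genes, 0.214% had such a difference of at least 1 and 4.29% of at most -1. The sodium and calcium exchanger Slc8a1 had 18 and 95 UMIs (1.99, 1.25 to 2.80). Ppp2r2b, a regulatory subunit of protein phosphatase 2A, had 23 and 114 (1.89, 1.24 to 2.61), and Lbp, the lipopolysaccharide-binding protein, had 100 and 452 (1.76, 1.45 to 2.09).

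Further genes higher in d/d members were Ccdc88c (1.76), Ebf4 (1.74), Emid1 (1.52), Fam171a1 (1.43) and the interleukin receptor Il1r1 (1.39). The lipoxygenase Alox15 had 48 and 179 UMIs, a log2 ratio of 1.48 (1.02 to 1.98). Prom1, a membrane glycoprotein often used as a marker of progenitor cells, had 30 and 107 UMIs (1.42, 0.82 to 2.06). Trp53, which encodes p53, had 29 and 106 UMIs (1.46, 0.85 to 2.10) and 1.55 in the other epithelial cells. All 12 genes named as highest stayed past the fold with no condition on lists A to D, at 1.91 for Tnfrsf19 and 1.37 for Trp53. In stromal barcodes all 12 also stood higher in d/d, at 300 against 125 CPM in f/f for Tnfrsf19 and 275 against 209 for Trp53.

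Cwc22 and Zcchc10 had the lowest ratios among genes with at least 100 UMIs in members. Cwc22, a splicing factor of which some mouse strains carry extra near-identical copies, had 148 UMIs in f/f members and 22 in d/d members, a log2 ratio of -3.16 (-3.88 to -2.51), and -2.37 in the other epithelial cells. The number of its copies in these mice is not given in the sources used here, so its value is uncertain. Zcchc10, a zinc finger protein, had 106 and 19 UMIs (-2.89, -3.68 to -2.18) and -2.69 in the others. Both were thus lower in d/d in cycling and in other epithelial cells. They were lower in d/d stromal barcodes too, at 142 against 655 CPM in f/f for Cwc22 and 39.9 against 143 for Zcchc10.

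Sgk1, a kinase induced by steroid hormones, had 147 and 51 UMIs in members (-1.94, -2.43 to -1.47). Ralgps2 (-1.90), Hopx, a homeodomain protein without DNA binding (-1.58), the sulfotransferase Sult1d1 (-1.48), the Toll-like receptor adaptor Myd88 (-1.44), Entrep1 (-1.38), the thioesterase Acot7 (-1.33) and the hydroxylase Asph (-1.28) were lower as well. Ccdc50 had 75 and 34 UMIs (-1.56, -2.19 to -0.95) in members and -0.25 (-0.56 to 0.04) in the others. All 12 lowest genes stayed past the fold with no condition on lists A to D. In stromal barcodes all 12 likewise stood lower in d/d, at 114 against 169 CPM in f/f for Sgk1.

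Transcripts of p53 target genes were more frequent in d/d members. The 18 genes of the list held 201 UMIs in f/f members and 535 in d/d members, 841 CPM (729 to 965) and 1679 CPM (1539 to 1827). In the other epithelial cells they held 1158 and 1553 CPM. At the minimum of 100 UMIs, Mdm2 and Bax were counted, 1 of 2 past the fold. Bax, which promotes cell death at mitochondria, had 59 and 177 UMIs (1.17, 0.74 to 1.62), and Mdm2, the ubiquitin ligase of p53, had 42 and 106 (0.92, 0.39 to 1.47). At a minimum of 20 UMIs, 8 genes were counted, 4 were higher and none lower, with a median of 1.05, where 5.7% of 6541 genes were higher. The list is limited in depth, since 10 of its 18 genes had fewer than 20 UMIs in members.

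Cdkn1a, the p21 inhibitor of cyclin-dependent kinases, had 2 UMIs in f/f members and 31 in d/d members, a log2 ratio of 3.54 (1.56 to 6.65), against 2.39 (1.67 to 3.11) in the other epithelial cells. Pmaip1, the BH3 protein Noxa, had 20 and 66 UMIs (1.31, 0.57 to 2.11), close to its 1.35 in the others. Ccng1, a cyclin induced by p53, had 5 and 37 UMIs in members (2.47, 1.12 to 4.18) but -0.46 (-1.03 to 0.07) in the other epithelial cells. Bbc3, the BH3 protein Puma, had 0 and 15 UMIs. With the f/f count set to the floor of 3 over all members, its log2 ratio was 1.91, which is not a lower bound. Sesn2 (-0.22), Btg2 (-0.81) and Tnfrsf10b (0.53) had intervals that included 0. With no condition on lists A to D, the log2 ratios were 2.61 for Cdkn1a, 1.51 for Ccng1, 1.34 for Pmaip1 and 1.11 for Bax. Bax stood at 0.95, short of the fold, with no limit on the mitochondrial share. Median depth was lower in d/d members, 1002 against 1247 UMIs, and its part in these ratios was not tested.

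Genes of the G1 phase were sparse. Ccnd1, the cyclin of early G1, had 9 UMIs in f/f members and 30 in d/d members (1.32, 0.21 to 2.58), and 1.71 in the others. Among cyclin-dependent kinases, Cdk2 had 16 and 24 UMIs (0.17) and Cdk4 had 14 and 20 (0.10), both with intervals that included 0. The inhibitor Cdkn1b, or p27, had 57 and 52 UMIs (-0.55, -1.12 to 0.02). Ccng2, a cyclin of cells leaving the cycle, had 42 and 30 (-0.90, -1.63 to -0.19). Of the 20 genes of this list, 1 reached 100 UMIs, and of 13 that reached 20 UMIs, 3 were higher (Ccnd1, Ccng1 and Cdkn1a) and none lower, with a median of 0.10, against 5.7% and 4.75% of all genes. Ccng1 and Cdkn1a were already counted among the p53 targets.

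Of the repair genes, Bard1, the partner of Brca1, had 17 and 63 UMIs in members (1.47, 0.68 to 2.34) and the checkpoint kinase Chek1 had 9 and 33 (1.46, 0.36 to 2.71). Brca1 had 42 and 43 UMIs (-0.38, -1.03 to 0.27). At 20 UMIs, 23 of 30 repair genes were counted, 3 higher and none lower, with a median of 0.23, against 5.7% and 4.75% of all genes.

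Hormone response genes of the members differed in direction. Greb1, a target of the estrogen receptor, had 4 UMIs in f/f members and 47 in d/d members (3.14, 1.69 to 5.07), and 2.0 in the other cells. The receptor genes differed less. Esr1 had 175 and 254 UMIs (0.12, -0.16 to 0.41) and Pgr had 85 and 66 (-0.78, -1.27 to -0.30). Muc1, a luminal mucin, had 18 and 6 UMIs (-2.0, -3.62 to -0.60), and -0.06 in the others. Lifting the condition on lists A to D put Muc1 at -0.91, short of the fold. Of 12 estrogen response genes with at least 20 UMIs, 3 were higher (Greb1, Ccnd1 and Cdkn1a) and 1 was lower (Muc1), with a median of 0.12, against 5.7% and 4.75% of all genes. Ccnd1 and Cdkn1a were already counted among the G1 genes. By contrast, the 4 genes with at least 100 UMIs had a median of -0.33 and none past the fold.

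Of 11 progesterone response genes with at least 20 UMIs, 1 was higher and 3 were lower, with a median of -0.41, where 5.7% of all genes were higher and 4.75% lower. Acod1, the enzyme that makes itaconate, had 42 and 8 UMIs (-2.81, -4.11 to -1.70). Sgk1 was the second, and Zbtb16, which was 6.0 times higher in mesothelial barcodes, the third, with 21 and 11 UMIs (-1.35). Klf9, with 14 and 3 UMIs, was under that minimum (-2.64, -5.08 to -0.80). Gata2, a transcription factor upstream of the progesterone receptor, had 227 and 167 UMIs (-0.86, -1.15 to -0.56), and -1.08 with no condition on lists A to D.

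Of 10 luminal genes with at least 20 UMIs, 1 was higher and 1 lower in d/d members, with a median of -0.18, and of 6 with at least 100 UMIs 1 was higher, with a median of 0.01. Of 5 further gland genes with at least 20 UMIs, 3 were higher (Prom1, Axin2 and Aldh1a1) and none lower, with a median of 1.32. The gland gene Cxcl15, with 2 UMIs in the members of each library, was under that minimum. Of all genes, 5.7% were higher and 4.75% lower at 20 UMIs, and 2.27% and 1.91% at 100 UMIs. Wnt7a, a luminal Wnt ligand, had 32 and 98 UMIs (1.20, 0.61 to 1.82), and Wnt11 had 52 and 7 (-3.31, -4.69 to -2.16). Axin2, a target of Wnt signalling, had 18 and 60 UMIs (1.32, 0.54 to 2.17). Aldh1a1, which makes retinoic acid and is often used as a gland marker, had 5 and 29 (2.12, 0.74 to 3.85). For Wnt7a, Wnt11, Axin2 and Aldh1a1 the ratio in the other epithelial cells had the same sign. Epithelial keratins stood closer, with Krt8 at 85 and 163 UMIs (0.52, 0.14 to 0.92) and Krt18 at 59 and 72 (-0.13, -0.64 to 0.39).

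**Figure D5:**
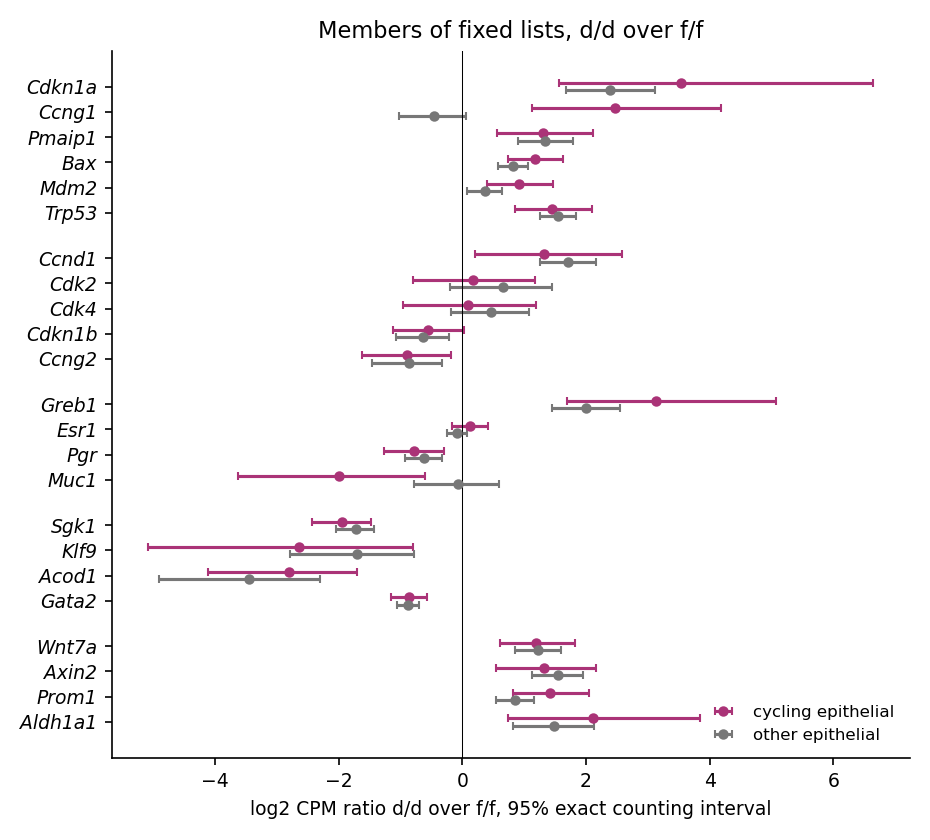
Points give the log2 CPM ratio of d/d over f/f (x axis) for list genes in cycling (purple) and other (grey) epithelial cells, with 95% exact counting intervals, grouped from top to bottom as p53 and its targets, G1 genes, estrogen and progesterone response genes, and Wnt, progenitor and gland genes. Ccng1 and Muc1 stand apart between the cell groups, at 2.47 against -0.46 and -2.0 against -0.06.

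Growth genes and the ErbB family closed the lists. Gnl3, the nucleolar protein nucleostemin, had 22 and 72 UMIs in members (1.30, 0.59 to 2.06), and Nop56, of the box C/D particles that modify ribosomal RNA, had 71 and 169 (0.84, 0.43 to 1.26). The 16 ribosome biogenesis genes in the files summed to 1510 CPM in f/f members and 2221 in d/d members. The ErbB receptors Egfr (35 and 26 UMIs, -0.84, -1.63 to -0.07) and Erbb2 (35 and 30, -0.64, -1.39 to 0.11) were low in both. Erbb3 had 17 UMIs in the members of each library, a log2 ratio of -0.41 (-1.47 to 0.64), so a difference of Erbb3 in cycling epithelial cells was not detectable at this depth, and whether probes lie in the deleted part is not given in the sources used here. None of the 16 genes of the ErbB list reached 100 UMIs in members.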

How the data were processed

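The authors deposited raw UMI counts of each gene in each barcode. The file headers name Cell Ranger 9.0.0. The tables covered 19070 genes, 13 of them mitochondrial. The submitters' processing notes name mm10 and GRCm39 without their roles, and the probe set version is not given in the sources used here. The members, gene lists, comparisons and alternatives were chosen with earlier results of these data known.

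For each group of barcodes and each library, gene counts were summed and scaled to CPM, that is, to 1e+06 UMIs of that group's total. Log2 ratios have exact conditional binomial intervals, sums exact Poisson intervals and shares exact Clopper-Pearson intervals, all at 95%, and differences of shares combine both intervals in quadrature. The floor for a count of 0 was 3 counts. Genes needed 100 UMIs over the groups compared, and past the fold means a log2 ratio of at least 1 or at most -1. Ratios and intervals were tested on simulated data. No statistical test was run, with 1 library per genotype. Phases were read after thinning to 500 UMIs, leaving out 3 f/f and 1 d/d shallower other epithelial barcodes. Doublets were scored with scrublet in scanpy 1.11.5, which called 0 f/f barcodes and 1 d/d barcode and so had not worked. None was removed. TMM factors came from edgeR 4.0.16, and other tools were Python 3.11.15, numpy 2.4.6, scipy 1.17.1, pandas 2.3.3 and R 4.3.3.

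Genes were named by rule: the 12 highest and 8 lowest of cycling over other epithelial cells in both libraries, the 12 highest and 12 lowest of d/d over f/f in members (leaving out 8 genes over 5 times higher in another cell type), the 5 highest and 5 lowest of the difference between members and others among genes whose interval leaves out 0, and genes of the rule and of 15 lists. Of the list genes 3 were not used here. Some genes that the rule names are not reported here. Alternatives changed the thresholds of the rule, left out each of its 5 genes or the condition on lists A to D, changed the mitochondrial limit, the gene minimum, the scaling or the depth, or removed the barcodes with the highest doublet scores.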

Additional observations from a re-analysis of the deposited data

Results flagged for a closer look

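The genotype ratio of the G2 and mitosis list differed between cycling and other epithelial cells. The median over its genes of the d/d to f/f log2 ratio in members minus that in other cells was -1.16, and this difference was not tested, with 1 library per genotype. The other epithelial cells hold barcodes with a cycling sum of 1 or held back by lists A to D, and the part of the rule in this value was not tested. With no condition on lists A to D, the median genotype ratio was 1.33 over 14 genes in the other cells and 0.05 over 63 genes in members. With only barcodes of a cycling sum of 0 as the other cells, 4 genes were counted there, with a median of 0.58.

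Of 1400 genes counted for this difference, 3 were at least 1 log2 unit higher in members (0.214%) and 60 lower (4.29%). The 3 were Plekha1, at 1.17 (0.48 to 1.87), Parn, a deadenylase, at 1.15 (0.50 to 1.80), and Ap3b1, a subunit of an adaptor complex, at 1.02 (0.43 to 1.61). With no condition on lists A to D they stood at 0.57, 0.51 and 0.68. The next highest by the rule were Pacsin3 at 0.94 and Tnfrsf19 at 0.91.

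The 5 lowest were Troap, a spindle protein, at -2.12 (-2.62 to -1.62), Cdc20 at -2.06 (-2.77 to -1.36), the kinesin Kif18b at -2.0 (-2.62 to -1.37), Lmnb2 at -1.98 (-2.61 to -1.35) and Cit at -1.98 (-2.47 to -1.48). In the other epithelial cells their genotype ratios were 1.51, 1.65, 1.45, 1.18 and 1.33.

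Barcodes above the mitochondrial limit were not used in the comparisons. Of the epithelial ones among them, 19 of 95 in d/d passed the cycling rule, 20% (12.5 to 29.5), against 2 of 109 in f/f, 1.83% (0.223 to 6.47).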

How the results depend on the processing

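No value past the fold and no difference of shares changed sign under an alternative. Values nearer 0 did in 57 cases for list medians and 68 for single genes, none of them over 0.48 in size. Among these, the genotype median of the mitosis list in members (-0.19) was 0.05 with no condition on lists A to D, and that of estrogen response genes (-0.33 over 4 genes) was 0.06 there and 0.12 at 20 UMIs. No paired analysis was possible because the labels give no replicate numbers and each genotype has 1 library. The difference in the cycling share, 27.6 points, was 20.03 with a cycling sum of at least 3, 18.3 without Top2a, 21.2 without Tpx2, 23.7 without Kif11, 16.9 after thinning to 500 UMIs and, added later, 36.0 among barcodes with an epithelial sum of at least 3 and no stromal UMI. The stromal difference, 9.89 points, was 5.46 with a sum of at least 3, 14.8 with at least 1, 3.19 after thinning and, added later, 2.76 among strict stromal barcodes. Genes higher and lower in d/d members, 32 and 27, were 69 and 78 with no condition on lists A to D, 100 and 79 at a minimum of 50 UMIs, and 373 and 311 at 20 UMIs, where more genes count, and 78 were lower with no mitochondrial limit. Genes higher and lower in members of both libraries, 142 and 50, were 233 and 168 at 20 UMIs, and 111 were lower at 50. For the difference of ratios, 3 higher and 60 lower genes became 0 higher with a sum of at least 3, 14 higher with no condition on A to D, 16 higher with no mitochondrial limit, 39 lower with no stromal UMI, 33 and 146 at 50 UMIs, and, added later, 5 and 13 against barcodes with a cycling sum of 0. List members past the fold, 4 higher and 1 lower, were 8 and 4 with no condition on A to D, 9 and 4 at 50 UMIs and, added later, 20 and 10 at 20 UMIs, with 5 lower without the mitochondrial limit and 2 lower with no stromal UMI. The cause was not tested. Depth limits genes with few UMIs in members, such as Klf9 and Bbc3.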

Other observations

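The barcodes with a cycling sum of at least 2 that lists A to D held back had a higher median depth than the members. The 167 in f/f had a median of 1416 UMIs and the 52 in d/d a median of 1076, against 1247 and 1002 in members. Their G2 and mitosis list stood at 19495 CPM for f/f and 20533 for d/d, compared with 26428 and 22688 in members, and their S phase list at 5250 and 4609 CPM, against 4739 and 5591 in members.

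Estrogen response and epithelial structure genes of the members summed to similar levels in both libraries. The 21 estrogen response genes held 2752 CPM in f/f members (2546 to 2971) and 2538 in d/d members (2366 to 2719), and the 19 epithelial structure genes held 3735 (3494 to 3989) and 4019 (3802 to 4245). The 21 progesterone response genes held 3489 CPM (3256 to 3734) and 2510 (2339 to 2690). The 14 further gland genes held 368 CPM (295 to 454) in f/f members and 747 (655 to 848) in d/d members, from 88 and 238 UMIs. Of these UMIs, Prom1 gave 30 and 107, and it was past the fold with Axin2 and Aldh1a1 at a minimum of 20 UMIs. Cxcl15 had 2 UMIs in the members of each library. With no condition on lists A to D, Cited4 had 33 and 12 UMIs and Lgr5 had 2 and 11. The sum thus does not describe every gene of the list.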
